A study of Drosophila melanogaster with 3 samples.

Results

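The binding sites described here are the E(z)-GFP peak summits that lay a short way off a promoter, more than 250 bp and at most 1000 bp from the nearest transcription start site (TSS) of a protein-coding gene. A summit is the position of highest signal in a peak, as the authors placed it. Of the 5623 summits in the authors' list of reproducible peaks on dm6, called the optimal list, 955 met this distance rule (17%, exact 95% binomial interval 16% to 18%). Of these members, 650 lay upstream of the TSS and 305 downstream of it. They were set against the 1338 summits within 250 bp of a TSS and the 3330 summits beyond 1000 bp.

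Chromatin from whole Drosophila melanogaster prepupae was immunoprecipitated and sequenced in 3 biological replicates that form 1 group. The animals came from 1 transgenic line that stably expresses E(z) with GFP fused to its C-terminus, the chromatin was sonicated, and the precipitation used an antibody against GFP, per the sample description. The antibody field names E(z) instead, and the sample description was taken here. Males and females were pooled, and the age is given as unknown. The labels name neither the promoter that drives the fusion nor the state of the endogenous E(z) gene. Whole animals mix all tissues, so a peak does not say in which cells E(z) was bound, and fewer cells with E(z) at a site cannot be told apart from less E(z) per cell. There was no second condition, so every comparison is between classes of summits or between replicates. Replicate 3 stood apart from replicates 1 and 2: its 5623 strongest peaks covered 73.5% of the optimal summits, against 84.1% for replicate 1 and 83.2% for replicate 2. Sequencing depth is unknown from these lists.

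E(z) is the catalytic subunit of Polycomb repressive complex 2 (PRC2), which methylates lysine 27 of histone H3 and keeps developmental genes silent. In flies PRC2 is brought to DNA at Polycomb response elements, which are known to lie at promoters, in introns and far from genes. Proteins that bind such elements include GAGA factor and Psq at GAGAG, Pho at GCCAT and Combgap at repeats of GT. A second class of words, such as TATCGATA, is bound by DREF and is known from the promoters of broadly expressed genes.

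The sequence under the strongest members is shown first, because most of it lay in introns and held none of the searched words. Each line gives 75 bp on either side of a summit, on the plus strand of dm6, from the RefSeq copy of genome release 6. They are the members of highest signal found in all 3 replicates, 4 per side, with no annotated UTR base in the window, and members of 1 arm were left out. Capitals mark a match to 1 of 4 words: GAGAG, which reads CTCTC on the other strand, GCCAT, which reads ATGGC there, GTGTGT, which reads ACACAC there, and the palindrome TATCGATA.
Lk6 at chr3R:11760967-11761117, 963 bp upstream: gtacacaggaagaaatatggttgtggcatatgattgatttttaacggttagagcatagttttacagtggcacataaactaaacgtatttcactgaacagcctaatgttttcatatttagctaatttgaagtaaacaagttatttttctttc
larp at chr3R:28326518-28326668, 329 bp upstream: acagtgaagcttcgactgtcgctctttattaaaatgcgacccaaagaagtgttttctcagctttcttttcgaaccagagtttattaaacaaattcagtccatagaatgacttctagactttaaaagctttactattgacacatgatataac
ph-p at chrX:2137223-2137373, 443 bp upstream: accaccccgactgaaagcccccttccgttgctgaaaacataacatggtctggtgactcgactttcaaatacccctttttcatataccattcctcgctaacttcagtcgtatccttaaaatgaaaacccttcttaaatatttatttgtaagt
CG4496 at chr2L:7188562-7188712, 569 bp upstream: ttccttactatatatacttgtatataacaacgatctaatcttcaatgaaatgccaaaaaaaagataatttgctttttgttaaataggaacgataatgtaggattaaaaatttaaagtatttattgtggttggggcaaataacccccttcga
CG9663 at chr2L:3302128-3302278, 927 bp downstream: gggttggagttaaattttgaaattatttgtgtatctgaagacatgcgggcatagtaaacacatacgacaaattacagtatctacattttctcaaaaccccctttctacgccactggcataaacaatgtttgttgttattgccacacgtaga
CG9663 at chr2L:3302327-3302477, 728 bp downstream: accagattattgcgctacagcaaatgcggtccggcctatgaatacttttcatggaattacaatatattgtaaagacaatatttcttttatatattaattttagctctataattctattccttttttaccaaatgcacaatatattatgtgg
LPCAT at chrX:9579211-9579361, 701 bp downstream: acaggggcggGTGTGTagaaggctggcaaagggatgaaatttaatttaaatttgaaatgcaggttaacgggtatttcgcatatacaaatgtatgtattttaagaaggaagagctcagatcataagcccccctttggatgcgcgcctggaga
Mhcl at chr3R:16097751-16097901, 935 bp downstream: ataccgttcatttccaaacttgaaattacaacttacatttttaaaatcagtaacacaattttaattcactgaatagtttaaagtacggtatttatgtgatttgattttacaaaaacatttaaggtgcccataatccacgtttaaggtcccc
Among these 8 windows, only that of LPCAT held a match, to GTGTGT. Lk6 and LPCAT also had a GAGAG match within 100 bp of the summit, outside the stretch printed.

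To show windows that do hold the words, 3 more members were chosen after their values were seen, with 100 bp on either side of the summit.
papi at chr2L:2221683-2221883, 306 bp upstream: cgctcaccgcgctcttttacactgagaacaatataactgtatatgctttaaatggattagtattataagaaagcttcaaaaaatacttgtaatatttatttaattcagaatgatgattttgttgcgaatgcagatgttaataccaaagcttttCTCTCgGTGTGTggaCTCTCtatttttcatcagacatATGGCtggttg
CG42327 at chr3R:11656707-11656907, 658 bp downstream: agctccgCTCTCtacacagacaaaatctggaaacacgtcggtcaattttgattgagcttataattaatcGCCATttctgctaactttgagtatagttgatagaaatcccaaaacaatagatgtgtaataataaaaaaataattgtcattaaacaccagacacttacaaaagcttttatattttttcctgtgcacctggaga
Abd-B at chr3R:16969410-16969610, 936 bp upstream: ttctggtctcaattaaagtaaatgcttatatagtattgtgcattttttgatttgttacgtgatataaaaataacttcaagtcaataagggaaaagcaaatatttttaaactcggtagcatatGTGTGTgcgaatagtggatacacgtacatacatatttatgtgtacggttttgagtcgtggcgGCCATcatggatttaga
The papi window held 2 CTCTC matches on either side of a GTGTGT match and 1 ATGGC match. The CG42327 window held 1 CTCTC and 1 GCCAT match, and the Abd-B window held GTGTGT and GCCAT.

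Members were concentrated on the upstream side, although the downstream zone is the longer. Positions in the same distance range upstream of their nearest TSS cover 7.62 Mb of the 6 chromosome arms and those downstream cover 11.1 Mb, each position being counted with its nearest TSS only. Upstream members made up 68.1% of the members (exact 95% interval 65.0% to 71.0%), against 40.7% of the base pairs (two-sided exact binomial test, p = 3.00e-65). Summits are not replicates of a condition, so this p covers at most the counting error of summits. It and the intervals treat each summit as independent. However, 23.1% of upstream and 8.52% of downstream members had another optimal summit within 500 bp, so the p and the intervals are too narrow by an unknown amount. The density was 85.3 summits per Mb in the upstream zone (95% Poisson interval 78.9 to 92.1) and 27.4 per Mb in the downstream zone (24.4 to 30.7), against 160 per Mb within 250 bp of a TSS and 31.2 per Mb beyond 1000 bp. Taken whole, the downstream zone was thus no denser than sequence beyond 1000 bp, whose interval was 30.1 to 32.3 per Mb. The upstream zone was denser. Coding exons took up 48.0% of the downstream zone and held 0.937 summits per Mb there. Its introns held 65.9 per Mb, its UTRs 27.1 and its sequence outside protein-coding genes 13.8. Sequence beyond 1000 bp was not split in this way, so a difference within the same kind of sequence was not tested.

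The upstream excess was seen in each replicate's own peaks. Among the 5623 strongest peaks of a replicate, summits in the upstream zone made up 11.5% in replicate 1, 12% in replicate 2 and 10.4% in replicate 3. Summits in the downstream zone made up 5.73%, 5.82% and 6.15% of the same lists. The upstream share was higher in 3 of 3 replicates, by 5.41 ± 1.01 percentage points (SD, n = 3). An exact sign-flip permutation test over the 3 replicates gave p = 0.25, two-sided, which is the smallest p that 3 replicates allow.

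Upstream members clustered towards the promoter and downstream members did not. The median distance was 448 bp for upstream members and 644 bp for downstream members. In steps of 250 bp from the outer edge inwards, the upstream density was 50.7, 63.8 and 129 summits per Mb, and it reached 245 per Mb in the last 250 bp before the TSS. On the other side it fell to 83.2 per Mb in the first 250 bp after the TSS and 22.5 per Mb in the next step, up to 500 bp, and was 29.3 and 31.2 per Mb in the last steps out. The outermost downstream step, with coding exons included, was at the density found beyond 1000 bp. In the replicates' own lists the step nearest the promoter on the upstream side, up to 500 bp away, had 133, 132 and 114 summits per Mb (126 ± 10.7, SD, n = 3). The matching downstream step had 24.2, 28.0 and 29.5 per Mb (27.2 ± 2.70, SD, n = 3), so the ranges did not overlap. The replicates differed most in the 250 bp just after the TSS, outside the members, where replicate 3 had 157 summits per Mb, against 59.3 in replicate 1 and 76.5 in replicate 2.

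**Figure D1:**
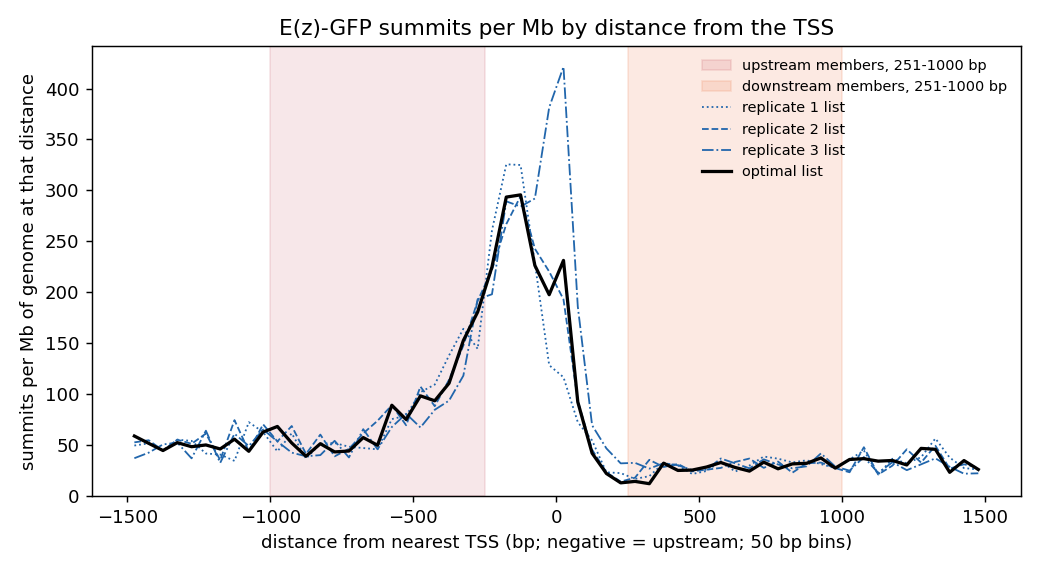
Summits per Mb of genome (vertical axis) against signed distance from the nearest TSS in bp (horizontal axis, negative upstream, 50 bp bins), for the optimal list (black) and the 5623 strongest peaks of each replicate (blue), with the 2 member zones shaded. The upstream zone slopes up towards the promoter in all 4 lists, and replicate 3 is highest at the TSS itself. The downstream zone has no such slope. The optimal list is lowest there in the bins up to 349 bp, at 14.6 and 12.3 per Mb.

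The distance bounds cut through a continuous distribution. Just inside the inner bound, by 1 bp, lay summits upstream of melt, a regulator of growth, CG9338 and CG7785, and just outside it lay summits 250 bp upstream of Sdb, Bacc and retn. At the outer bound, the summits 1000 bp downstream of CG43389, 1000 bp upstream of sick and 998 bp upstream of Dad were the last members. Summits 1001 bp downstream of CG13868 and 1002 bp downstream of crb and C3G fell just outside.

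Few members lay in coding exons on either side, and introns held the highest density of them. Of the upstream members, 325 lay in introns (50%), 308 outside protein-coding genes (47.4%), 16 in UTRs and 1 in a coding exon. Of the downstream members, 250 lay in introns (82.0%), 46 in UTRs, 5 in coding exons and 4 outside protein-coding genes. Coding exons take up 13.2% of the upstream zone and 48.0% of the downstream zone, and held 0.994 and 0.937 summits per Mb there. Introns held 144 per Mb upstream and 65.9 per Mb downstream, and their Poisson intervals (129 to 161 upstream and 58.0 to 74.6 downstream) did not overlap. Sequence outside genes held 89.8 per Mb upstream and 13.8 per Mb downstream, the second from 4 summits. UTRs went the other way, with 17.2 per Mb upstream and 27.1 per Mb downstream, and their intervals overlapped.

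The upstream excess was smaller once coding exons were set aside, and it remained past the threshold. Without coding exons, upstream members made up 68.4% of 949, against 53.4% of the base pairs (exact binomial test, p = 6.75e-21). Within introns alone they made up 56.5% of 575, against 37.3% of the base pairs (exact binomial test, p = 8.86e-21). Both restrictions were chosen after the data were seen.

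**Figure D2:**
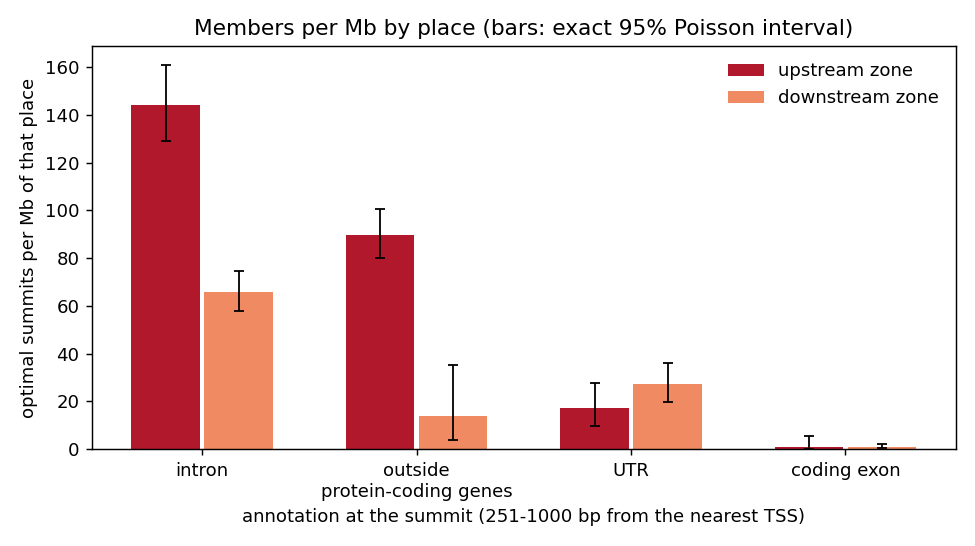
Members per Mb (vertical axis) by what the annotation gives at the summit (horizontal axis), for the upstream zone (red) and the downstream zone (orange), with exact 95% Poisson intervals as bars. Introns are densest on both sides, at 144 and 65.9 per Mb, and coding exons are near 1 per Mb.

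Many upstream members were inside the gene they were assigned to. The nearest TSS was internal to its gene, with the summit between it and the gene's outermost TSS, for 278 of 650 upstream members (42.8%). When each gene was given only its outermost TSS, 377 upstream members kept their class, 33 became downstream members and 240 moved beyond 1000 bp. The upstream share was then 55.9% of 703 members, against 40.0% of the base pairs (exact binomial test, p = 2.55e-17). RefSeq TSSs put all 955 members in the same class. Of the 308 upstream members outside protein-coding genes, 147 lay between divergent genes and 161 behind a gene on the same strand. The gene on the far side started or ended a median of 4499 bp away for the divergent pairs and 3281 bp away for the tandem pairs.

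Genes with a member often had several annotated TSSs. The 955 members were nearest to 788 genes, which is 5.65% of the 13945 protein-coding genes. More than 1 TSS was annotated for 61.9% of the genes with a member, against 26.5% of all protein-coding genes. This was not tested, because a gene with more TSSs has more sequence in the zone. An upstream member was present at 554 genes, a downstream member at 288 and both at 54. Of the 788 genes, 224 also had a summit within 250 bp of a TSS (28.4%), against 8.88% of all protein-coding genes. That difference was not tested for the same reason, as genes with a member had a mean of 2.37 TSSs, against 1.41 for all genes.

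Some members had another summit close by. A further optimal summit lay within 500 bp of 23.1% of upstream members and 8.52% of downstream members, against 10.2% of the summits within 250 bp of a TSS and 10.2% of those beyond 1000 bp. These shares were not tested. For 10 members the deposited interval was shared with another optimal peak that had its own summit and signal value, including both CG9663 summits printed above.

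The strongest upstream members lay mostly in introns, at genes of varied function. The strongest was 963 bp upstream of an internal TSS of Lk6, which encodes a protein kinase that acts on translation factor eIF4E, and it ranked 7, 8 and 10 by signal among the peaks of replicates 1, 2 and 3, where 1 is the strongest. The next was 329 bp upstream of a TSS of larp, a La-related RNA-binding protein, with ranks 13, 11 and 14. Both were near the top of every replicate, and both sat inside their own gene.

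A Polycomb group gene followed. The summit 443 bp upstream of an internal TSS of ph-p, which encodes the Polyhomeotic subunit of Polycomb repressive complex 1, ranked 40, 32 and 41. A second ph-p member, 439 bp downstream of a TSS and in a UTR, ranked 101, 189 and 495. The neighbouring paralogue ph-d had 1 member, 827 bp upstream, with ranks 734 and 1673 and no peak of replicate 3 at the summit. Reads shared between ph-p and ph-d could be placed on either gene, and the sources used here do not give how such reads were treated.

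Ranks of the next members varied more in some cases than in others. The summit 282 bp upstream of CG13501, in an intron of Snp, ranked 60, 25 and 102. The summit 274 bp upstream of an internal TSS of Rtnl1, a reticulon gene, ranked 71, 77 and 76. Summits upstream of HmgZ, which encodes a high mobility group protein, papi, a Tudor-domain protein of the piRNA pathway, and chif, the fly Dbf4 homologue, and upstream of CG4496 and Reph, had mean ranks between 64.0 and 125. CG4586 had ranks 220, 196 and 21, with the highest place in replicate 3. The atypical cadherin gene ds, of the Fat and Hippo pathways, ranked 105, 122 and 174, and its summit and that of CG4586 were the 2 of the 12 outside protein-coding genes.

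The strongest downstream members were nearly all in introns as well, 11 of 12. The first, 927 bp downstream of CG9663, ranked 38, 21 and 24. The second CG9663 summit, at 728 bp, lay inside the same peaks of replicates 1 and 2 and ranked 212 in replicate 3. Adf1, which encodes a transcription factor that binds Polycomb response elements, had a summit 800 bp downstream with ranks 28, 62 and 69. LPCAT, a lysophosphatidylcholine acyltransferase gene, ranked 73, 29 and 75 at its summit 701 bp downstream.

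Further downstream members of this set belonged to Mhcl, a myosin heavy chain-like gene, CG42327, CG5854, kuk, which encodes a nuclear envelope protein, Pen, an importin alpha, mub, an RNA-binding protein, and CG43389. Their mean ranks ran from 76.7 for Mhcl to 242 for CG43389. Cat, which encodes catalase, ranked 375 and 349 in replicates 1 and 2 and 49 in replicate 3. A rank gives a place within 1 list and not a strength that can be compared between replicates. None of the 4 words was within 100 bp of the summit for 15 of these 24 members, against 46.1% of all optimal summits. GAGAG was near 8 of the 24, against 28.2% of all optimal summits, and neither share was tested.

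**Figure D3:**
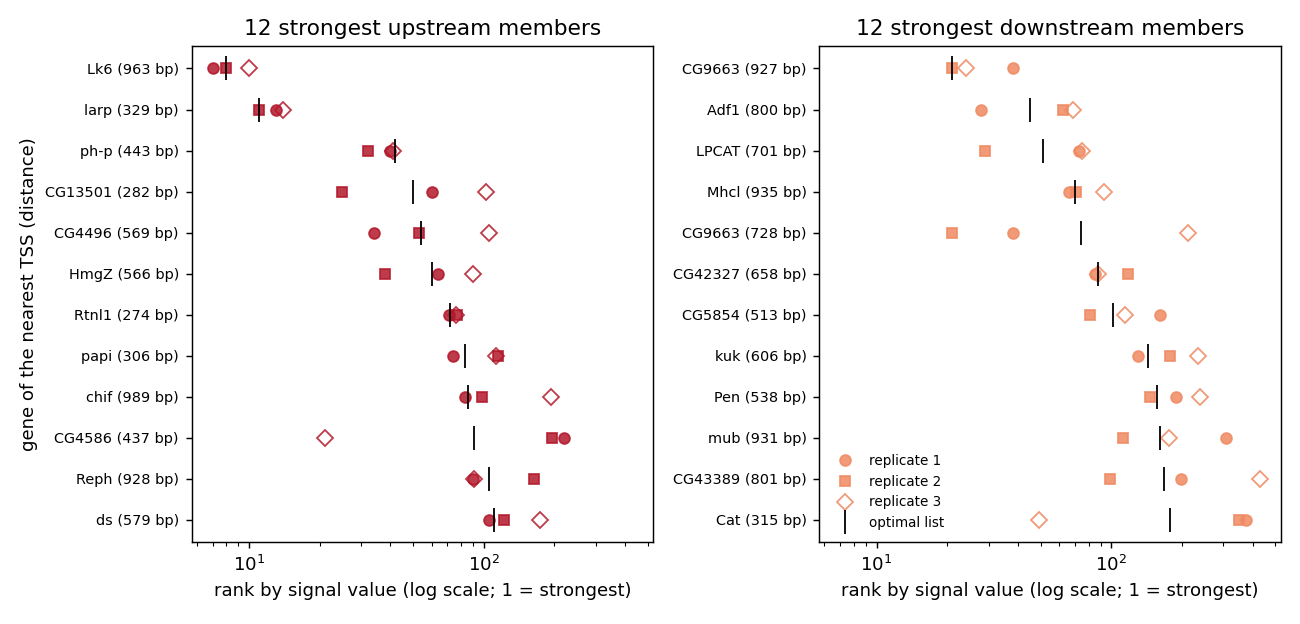
Rank by signal value within each list (horizontal axis, log scale, 1 is strongest) of the 12 strongest upstream members (left, red) and the 12 strongest downstream members (right, orange) that were found in all 3 replicates, labelled by the gene of the nearest TSS and the distance. The 3 replicate symbols lie close together for Lk6 and larp, and replicate 3 is far from the others for CG4586 and Cat.

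Members had higher signal than distant summits. Of the 955 members, 532 (55.7%) were among the 2811 optimal peaks of higher signal, against 50% of all optimal summits by construction. The share was 47.0% beyond 1000 bp, which gives an odds ratio of 1.42 (95% interval 1.23 to 1.64, Fisher's exact test with Benjamini-Hochberg adjustment over 18 tests, adjusted p = 1.93e-05). It was 53.4% within 250 bp of a TSS, with an odds ratio of 1.10 (0.930 to 1.30, exact test, adjusted p = 0.323). That second comparison depended on the replicates used: the odds ratio was 0.757 (exact test, adjusted p = 0.0438) for peaks found in replicates 1 and 2 and 1.34 (adjusted p = 0.0477) for those found in replicates 2 and 3. Upstream members reached 54.8% and downstream members 57.7% (odds ratio 0.888, 0.675 to 1.17, exact test, adjusted p = 0.426).

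Most members were found in every replicate, at about the background share. A summit counted as found when it lay inside one of a replicate's 5623 strongest peaks. This held in all 3 replicates for 561 members (58.7%), against 55.9% of all optimal summits. The share was 55.5% within 250 bp of a TSS (odds ratio 1.14, 0.967 to 1.35, Fisher's exact test, adjusted p = 0.232) and 55.2% beyond 1000 bp (1.16, 0.999 to 1.34, adjusted p = 0.140), and neither test passed. The second comparison turned round when a replicate's 11246 strongest peaks were used, with an odds ratio of 0.734 (exact test, adjusted p = 0.0105).

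The replicates did not find the classes equally. Upstream members were found at 85.4%, 86.6% and 71.7% in replicates 1, 2 and 3 (81.2% ± 8.28, SD, n = 3), and downstream members at 85.2%, 84.9% and 78.0% (82.7% ± 4.07). Replicate 3 was lowest for both sides, as it was for summits beyond 1000 bp, at 87.7%, 83.2% and 69.0%. It was highest for summits within 250 bp of a TSS, at 74.4%, 81.3% and 84.5%. The sides of the TSS could not be separated, with 57.5% of upstream and 61.3% of downstream members found in all 3 replicates (odds ratio 0.856, 0.649 to 1.13, Fisher's exact test, adjusted p = 0.327).

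**Figure D4:**
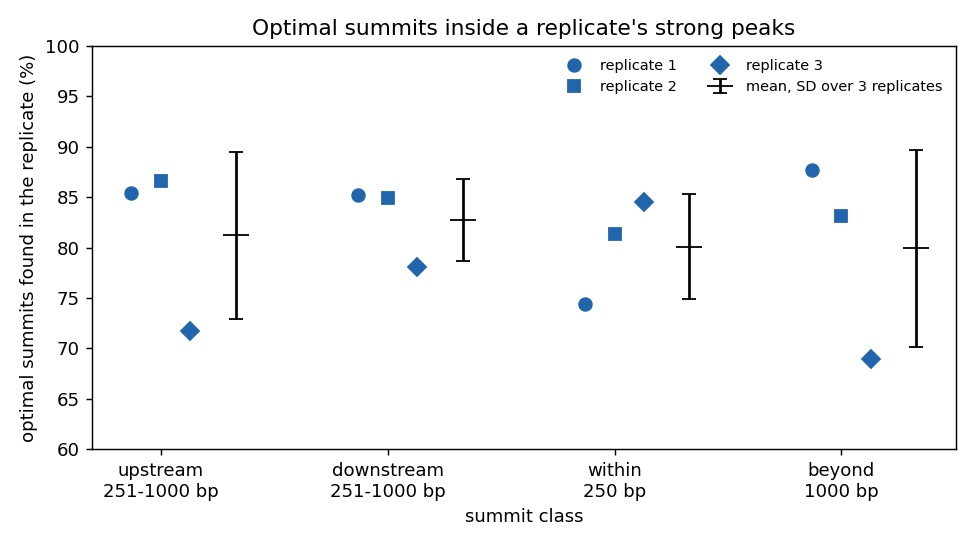
Share of optimal summits found in each replicate's 5623 strongest peaks (vertical axis, percent, from 60) by summit class (horizontal axis), with 1 symbol per replicate and the mean and SD over 3 replicates beside them. Replicate 3 is lowest for upstream members, downstream members and summits beyond 1000 bp, and highest for summits within 250 bp.

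For members found in all 3 replicates, the position of the summit was compared between them. Being found requires the optimal summit to lie inside each replicate's peak, which limits how far apart these summits can be. The spread between the 3 replicate summits had a median of 52.5 bp for upstream members and 45 bp for downstream members, against 44 bp within 250 bp of a TSS and 46 bp beyond 1000 bp. The largest spread was 268 bp for upstream members and 242 bp for downstream members. All 3 replicate summits stayed in the class of the optimal summit for 82.4% of 374 upstream members and 92.5% of 187 downstream members. The shares were 90.3% within 250 bp of a TSS and 99.2% beyond 1000 bp. These shares were not tested. On the upstream side 60 members lay in the first 25 bp inside the inner bound, and 66 summits in the last 25 bp outside it.

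Among the 4 words, GTGTGT and TATCGATA were at different shares near members and near another class of summits. Words were searched on both strands within 100 bp of the summit; TATCGATA is its own reverse complement, and no word contains another. A match describes the letters and does not show that a factor was bound. GTGTGT was near 164 members (17.2%), against 13.9% of all optimal summits. The share was 12.9% beyond 1000 bp (odds ratio 1.40, 1.15 to 1.70, Fisher's exact test, adjusted p = 0.00589) and 14.1% within 250 bp of a TSS (1.27, 1.01 to 1.59, adjusted p = 0.140). The difference from distant summits did not pass among the 2811 peaks of higher signal (1.26, exact test, adjusted p = 0.216). It also missed the threshold when TSSs of all annotated genes were used (1.29, exact test, adjusted p = 0.0540). The difference from promoter summits passed for peaks found in replicates 2 and 3 (1.40, exact test, adjusted p = 0.0477).

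TATCGATA was rarer near members than near promoter summits, and it was rare near distant summits too. It was near 6 members (0.628%), 2 upstream and 4 downstream, against 1.16% of all optimal summits. Windows centred 625 bp from a TSS without regard to summits, described below, had it at 0.650% upstream and 0.262% downstream. Promoter summits within 250 bp of a TSS had it at 49 of 1338 (3.66%), an odds ratio of 0.178 for members (0.0784 to 0.406, Fisher's exact test, adjusted p = 1.09e-05). Beyond 1000 bp it was near 0.300% of summits (odds ratio 2.16, 0.812 to 5.77, exact test, adjusted p = 0.232). In windows with no base within 100 bp of a TSS, the odds ratio against promoter summits was 2.22 and did not pass (exact test, adjusted p = 0.637). That setting dropped most promoter summits, whose upper quartile of distance to a TSS was 164 bp. With so few matches the value rests on the 0.5 added to each count, so its direction cannot be read.

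GAGAG was near 286 members (29.9%), against 28.2% of all optimal summits. It was near 32.4% of summits within 250 bp of a TSS (odds ratio 0.891, 0.744 to 1.07, Fisher's exact test, adjusted p = 0.293) and 26.0% of those beyond 1000 bp (1.22, 1.04 to 1.42, adjusted p = 0.0823). The difference from distant summits passed among optimal peaks found in replicates 2 and 3, in 1 and 3, and in 1 and 2. The odds ratios were 1.29, 1.33 and 1.27, with adjusted p of 0.0466, 0.0296 and 0.0393 by Fisher's exact test. These 3 sets overlap, and all come from the list made from all 3 replicates. The difference from distant summits also passed with 250 bp on either side (1.50, exact test, adjusted p = 6.99e-07). The odds ratio against promoter summits was 1.02 for peaks found in replicates 1 and 3 and 1.00 for those found in replicates 1 and 2. GCCAT was near 236 members (24.7%), against 26.7% of all optimal summits, 27.0% within 250 bp of a TSS and 27.2% beyond 1000 bp, and neither of its tests passed (exact test, adjusted p = 0.293 and 0.232).

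The words did not separate upstream from downstream members within 100 bp. GAGAG was near 31.4% of upstream and 26.9% of downstream members (odds ratio 1.24, 0.917 to 1.68, Fisher's exact test, adjusted p = 0.259). GTGTGT went the other way, near 15.5% of upstream and 20.7% of downstream members (0.705, 0.498 to 0.999, exact test, adjusted p = 0.140). GCCAT was near 24.9% and 24.3%. With 250 bp on either side both contrasts passed, with an odds ratio of 1.67 for GAGAG (exact test, adjusted p = 0.00153) and 0.549 for GTGTGT (adjusted p = 0.000102).

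Words and base composition also varied among the members. GAGAG was near 32.8% of members up to 500 bp from the TSS, 32.7% from there to 750 bp and 20.4% from there to 1000 bp. GTGTGT was near 31.1% of the 90 downstream members up to 500 bp away, and near 16.5% and 16.0% in the next steps. These steps were not tested. In the flank 101 to 250 bp from the summit, GAGAG was present in 38.3% of upstream members on the side towards the TSS and in 32.5% on the side away from it. For downstream members those shares were 28.5% and 28.2%.

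Against positions chosen by distance alone, members had more GAGAG and less GCCAT within 100 bp of the summit. The comparison used windows of the same length centred 625 bp from each TSS, where no other TSS was nearer, 9998 upstream and 14880 downstream. GAGAG was near 31.4% of upstream members, against 20.4% of the upstream windows, and near 26.9% of downstream members, against 21.4% of the downstream windows. GCCAT was near 24.9% of upstream members, against 33.1%, and near 24.3% of downstream members, against 36.4%. For GTGTGT these values were 15.5% against 11.2% upstream and 20.7% against 11.1% downstream. For TATCGATA they were 0.308% against 0.650% upstream and 1.31% against 0.262% downstream. The median GC content was 35.3% for upstream members, against 40.3% for the upstream windows, and 36.8% for downstream members, against 46.8%. How often a word occurs moves with GC content, so these shares are given as a description, with no test. The windows were also not matched to members by distance or place. Upstream members had a median distance of 448 bp, and coding exons took up 48.0% of the downstream zone but held 5 downstream members. GCCAT was near 26.7% of all optimal summits, so its lower share was not particular to members. None of the 4 words was present near 443 members (46.4%), against 46.1% of all optimal summits.

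GC content was lower at the summits than in their flanks. The 50 bp on either side of the summit averaged 35.7% GC for upstream members and 36.3% for downstream members, and the flanks from 300 to 400 bp away averaged 44.1% and 44.0%. These averages were 34.0% and 45.0% for summits beyond 1000 bp, and 40.9% and 42.6% for summits within 250 bp of a TSS. GAGAG was also sparser at member summits than in these flanks. Upstream members had 2.85 matches per 1000 positions at the centre and 4.59 in the flanks, and downstream members had 1.97 and 2.75. The values were 2.02 and 2.64 beyond 1000 bp, and went the other way within 250 bp of a TSS, at 3.37 and 2.46. These differences were not tested.

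Regulators of tissue identity had members at a larger share of their genes than any other list. Of 74 transcription factor genes that specify organs and tissues, 31 had a member (41.9%), 30 of them upstream and 2 downstream, against 5.65% of all protein-coding genes. A summit within 250 bp of a TSS was present at 42 of the 74 (56.8%, against 8.88% of all protein-coding genes). Their 37 members had a median rank of 1285 in the optimal list, against 2488 for all members, and 28 were found in all 3 replicates, against 58.7% of all members. GAGAG was near 24 of the 37, against 29.9% of all members. The next highest share was 5 of 13 genes (38.5%), for factors that bind Polycomb response elements. Counts over lists are descriptions here, and no list was tested. The lists were chosen with earlier results of these data known, so their order by share may follow from that choice.

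Single members of that list varied between replicates. The summit 366 bp upstream of cbt, which encodes a zinc-finger factor, lay in an intron of another gene, and its mean rank over the 3 replicates was 195 ± 51.7 (SD), with the best, 141, in replicate 1. Poxm, a paired-domain factor gene, ranked 113, 262 and 572 at 388 bp upstream, and NK7.1, a homeobox gene, ranked 244, 274 and 187 at 682 bp upstream. The summit 252 bp upstream of rib, a BTB-domain factor gene, ranked 607, 595 and 78. The other genes of the list with a member were C15, D, Dll, Doc2, E5, H15, Sox15, Sox21b, al, ara, bab2, dac, dsx, fkh, grn, gsb-n, lbe, lbl, mid, mirr, org-1, salm, so, srp, tup, vvl and wor.

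More Hox and segmentation genes had a summit at the TSS than had a member. Of 8 Hox genes, 2 had a member (25%, against 5.65% of all protein-coding genes) and 7 had a summit within 250 bp of a TSS (87.5%, against 8.88%). Abd-B, which specifies posterior abdominal segments, had 3 members in its introns, all upstream of internal TSSs. The one 936 bp upstream ranked 1193, 755 and 937, the one 660 bp upstream ranked 5036, 4073 and 3647, and the one 392 bp upstream ranked 5036, 11024 and 2137. The last 2 lay inside the same peak of replicate 1. Antp had 1 member 296 bp upstream, with ranks 8596, 8039 and 4687. Of 27 segmentation genes, 6 had a member (22.2%), namely Kr, bowl, drm, hb, nub and oc, and 19 had a summit within 250 bp (70.4%). The gap gene hb had its member 297 bp downstream of a TSS, with ranks 1852, 3727 and 303.

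Genes of signalling pathways were also among those with members. Of 37 receptor and regulator genes, 12 had a member (32.4%, against 5.65% of all protein-coding genes) and 13 a summit within 250 bp of a TSS (35.1%, against 8.88%). Those with a member were Dad, Tl, aos, brk, emc, fng, htl, kek1, nkd, pnt, rho and wit. The member 260 bp upstream of an internal TSS of pnt, the ETS factor downstream of receptor tyrosine kinases, ranked 257, 181 and 32. The member 737 bp upstream of fng, the glycosyltransferase that modifies Notch, ranked 210, 215 and 333. For brk, a repressor of Dpp targets, the replicates disagreed, with ranks 480, 765 and 8224.

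Of 31 ligand genes, 4 had a member, Wnt6, daw, dpp and spi (12.9%, against 5.65% of all protein-coding genes), and 11 had a summit within 250 bp (35.5%, against 8.88%). The EGF receptor ligand gene spi had 3 members, and the strongest, 338 bp upstream of a TSS, ranked 560, 731 and 1148. The BMP gene dpp had a member 285 bp downstream with ranks 3536, 4170 and 1125. Of 20 proneural and E(spl) genes, 4 had a member (20%), E(spl)m2-BFM, E(spl)m3-HLH, E(spl)m7-HLH and emc, all upstream. The Notch target E(spl)m7-HLH ranked 1266, 1803 and 1989 at 328 bp upstream.

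The hormone ecdysone drives metamorphosis at this stage. The list of ecdysone and metamorphosis genes holds response genes together with hormone synthesis and cell death genes. It had members at 9 of 42 genes (21.4%, against 5.65% of all protein-coding genes): E23, Edg84A, Eip63E, Eip63F-1, Eip74EF, Eip75B, ImpE2, chinmo and hid. A summit within 250 bp was present at 14 of the 42 (33.3%, against 8.88%). The member 306 bp upstream of hid, a cell death gene, ranked 236, 646 and 655. The member 500 bp downstream of a TSS of Eip63F-1 ranked 876, 691 and 2104. The nuclear receptor gene Eip75B had 3 members, with ranks in the optimal list from 2627 to 4786. GCCAT was within 100 bp of 0 of the 11 members of the list, against 24.7% of all members, and was not tested.

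Factors that bind Polycomb response elements had members at 5 of 13 genes, Adf1, Dsp1, Sp1, grh and psq (38.5%, against 5.65% of all protein-coding genes), and a summit within 250 bp at 4 (30.8%, against 8.88%). Dsp1, a high mobility group protein gene, ranked 1832, 1260 and 1775 at 805 bp upstream. Sp1 ranked 2914, 3099 and 840 at 473 bp upstream, and psq ranked 5207, 4566 and 678 at 433 bp downstream, and both had their highest place in replicate 3. Of 23 Polycomb group genes, 3 had a member, ph-p, ph-d and Kdm2 (13%). Of 17 trithorax group genes, fs(1)h alone had a member (5.88%, close to the share of all genes), 823 bp downstream, with ranks 3255, 1747 and 5489.

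Lists of genes with general cellular functions were not alike either. Ribosomal protein genes had a member at 0 of 92, against 5.65% of all protein-coding genes, and a summit within 250 bp at 42 (45.7%, against 8.88%). Glycolytic enzyme genes had a member at 0 of 13 and a summit within 250 bp at 5 (38.5%). A list of 13 genes is too small to set 0 apart from the 5.65% of all protein-coding genes. Proteasome genes had a member at 0 of 48 and a summit within 250 bp at 2 (4.17%). Of 11 heat shock genes, only Hsp22 had a member (9.09%), found in 2 replicates, and 4 had a summit within 250 bp (36.4%).

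Gene families of differentiated cells differed from each other. Of 54 genes of the synaptic immunoglobulin families, dpr20 had a member (1.85%, against 5.65% of all protein-coding genes) and 8 had a summit within 250 bp (14.8%, against 8.88%). Of 70 cuticle protein genes, 3 had a member, Cpr47Ec, Cpr62Ba and Cpr72Eb (4.29%), and 0 had a summit within 250 bp. Cpr72Eb ranked 616, 1080 and 957. Of 179 chemoreceptor genes, 4 had a member, Gr77a, Ir48b, Ir67c and Ir94h (2.23%), and 0 had a summit within 250 bp. The Ir94h member, 540 bp upstream, was the only one of the 4 found in all 3 replicates, with ranks 1077, 664 and 881. For both cuticle and chemoreceptor genes the share with a member was below the 5.65% of all protein-coding genes. Summits beyond 1000 bp were not counted by list.

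**Figure D5:**
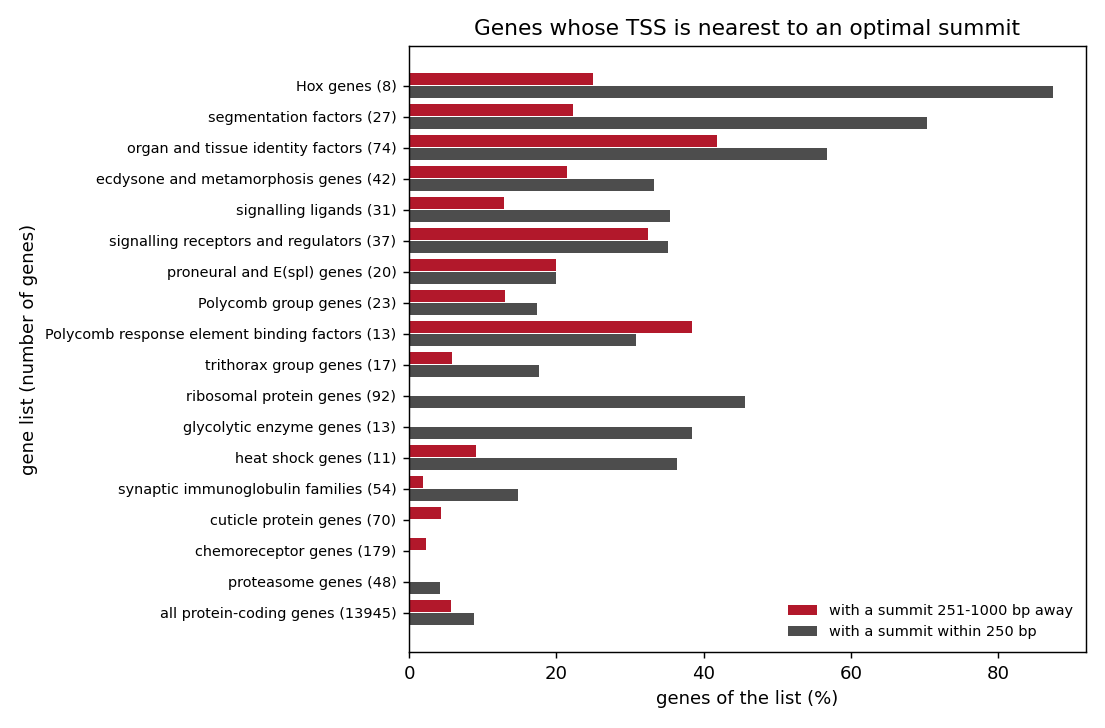
Share of the genes of each list (horizontal axis, percent) with a member (red) or with a summit within 250 bp of a TSS (grey), with the number of genes in each list in brackets and all protein-coding genes in the bottom row. Identity factors have members at 31 of 74 genes, against 5.65% of all protein-coding genes. Ribosomal protein, glycolytic and proteasome genes have members at 0 of 92, 13 and 48 genes.

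Some genes had several members. Of the 788 genes, 133 had 2 or more members and 29 had 3 or more. Those with 4 were dnc, which encodes a cAMP phosphodiesterase, Svil, ckn, Tlk, a kinase gene, and PAN3. The dnc members lay at 3 of its 9 TSSs, and their ranks in the optimal list were 300, 330, 2067 and 5419. The first of these, 278 bp upstream of a TSS and in a UTR, ranked 399, 308 and 297, and the last, 952 bp downstream, ranked 6269, 4089 and 12889. Those with 3 were Mhcl, Rtnl1, pnt, prage, CG43389, pdgy, CG43658, chas, spri, cnc, Diap1, spi, stv, CG43736, CG15365, CG3842, Syp, Abd-B, NFAT, Fim, CG14478, Eip75B, Moe and Rgl. CG43389 had its 3 members around a single TSS, and the others used between 1 and 4 TSSs each.

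All 6 chromosome arms held members. The X chromosome held 213 members (22.3%), against 18.4% of all optimal summits, and 3L held 182 (19.1%), against 22.1%. The shares were 17.7% against 18% on 2L, 17.9% against 17.3% on 2R and 22.7% against 23.9% on 3R. Chromosome 4 had 3 members, all upstream. These shares were not tested.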

How the data were processed

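E(z)-GFP chromatin immunoprecipitation was sequenced in 3 replicates, mapped to dm6 and dm3 per the labels. The authors deposited 30000 relaxed peaks per replicate, 1 relaxed list from all replicates, and an optimal list of peaks that passed a threshold on the irreproducible discovery rate, per the text that came with the samples. Replicate lists were derived from 1 replicate's alignment and 1 further file of unstated kind. The aligner and the peak caller were not given in the sources used here, nor was any scaling of the signal values that the authors deposited, which served only as ranks within a list. The −log10 q-values the authors deposited ran from 2.87 to 3.97 in the optimal list and were not used further. Summits were placed from the peak starts and offsets that the authors deposited. Depth is unknown, so intervals cover only the counting error of summits taken as independent. Where nothing says otherwise, the spread between replicates may be partly technical. The dm3 lists were not used here.

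TSSs came from protein-coding transcripts of Ensembl release 115 (BDGP6.54; 13945 genes and 19252 TSS positions on 6 arms), and DNA sequence from RefSeq's genome release 6. Upstream and downstream counts were set against base pairs with an exact binomial test. Shares of summits were compared with Fisher's exact test, two-sided, adjusted by Benjamini-Hochberg over 18 tests with a threshold of 0.05. Odds ratios were computed after adding 0.5 to each count, and their intervals rest on the normal approximation for the log odds. Summits are not replicates, so these tests describe 1 list, and they treat neighbouring summits as independent. Scripts used Python 3.11.15, numpy 2.4.6, pandas 2.3.3, scipy 1.17.1 and matplotlib 3.10.9, and distances, classes, motif search and tests were checked on simulated data.

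Genes were named by rule: the 12 members of highest signal per side found in all 3 replicates, up to 4 members per gene list, genes with 3 or more members, and the 3 summits nearest each bound on either side. The members and the 17 gene lists were chosen with earlier results of these data known. List symbols were matched to the annotation directly or through a synonym, Dl was set by hand to Delta, and 3 symbols without a match are not reported here. Alternatives covered the peak set, each replicate left out, the TSS annotation, the distance bounds, the rule for finding a peak and the motif window. Introns only and no coding exons were added after seeing the data. For the optimal list, leaving a replicate out meant keeping only the peaks found in both of the others.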

Additional observations from a re-analysis of the deposited data

How the results depend on the processing

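Each result was recomputed under the alternatives, and 164 of 202 values kept their direction and their side of the threshold. This count includes settings that could not change a value: RefSeq TSSs left all members in their class, and windows over 100 bp from a TSS removed nothing beyond the promoter summits. The upstream excess passed in all 11 alternatives, with upstream shares from 55.9% to 68.5%. The share of summits that are members moved to 18.9% among the 2811 peaks of higher signal, 20.7% with TSSs of all annotated genes, 12.5% with 1 TSS per gene and 22.9% with bounds widened by 50 bp inwards and 200 bp outwards.

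The following values are odds ratios. Each replicate was set aside in turn, and only optimal peaks found in both of the others were kept. In these overlapping sets, higher signal against promoter summits ran from 0.757 to 1.34 and GAGAG against promoter summits from 0.913 to 1.02. In the same sets GAGAG against distant summits ran from 1.27 to 1.33 and GTGTGT against promoter summits from 1.40 to 1.42. Among the 2811 peaks of higher signal, being found in all 3 replicates against distant summits turned to 0.873 and GTGTGT against distant summits weakened to 1.26. Among peaks found in all 3 replicates, higher signal against promoter summits turned to 0.920, GAGAG against promoter summits turned to 1.02, and GAGAG against distant summits passed at 1.33. With TSSs of all annotated genes, GTGTGT against distant summits weakened to 1.29, and upstream against downstream turned to 1.05 for higher signal and 0.989 for GCCAT. With 1 TSS per gene, values against promoter summits turned to 0.986 for higher signal, 0.999 for found in all 3 replicates and 1.08 for GAGAG, and GTGTGT passed at 1.49. In that setting upstream against downstream passed at 0.562 for GTGTGT and turned to 1.32 for TATCGATA. With the wider bounds, found in all 3 replicates against promoter summits passed at 1.22, GAGAG against distant summits at 1.25 and GAGAG upstream against downstream at 1.38. Found in all 3 replicates against distant summits turned to 0.734 with the 11246 strongest peaks and passed at 1.21 with summits within 200 bp. With 250 bp windows GAGAG against promoter summits turned to 1.17, GAGAG and GCCAT against distant summits passed at 1.50 and 0.802, and upstream against downstream passed at 1.67 for GAGAG and 0.549 for GTGTGT. In windows over 100 bp from a TSS, which dropped most promoter summits, GTGTGT against promoter summits passed at 2.13. TATCGATA was 2.22 there and was counted as turned, although that value rests on the 0.5 added to each count. The cause of these changes was not tested.

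No paired analysis was possible because the 3 replicates form 1 group, with no second group to pair them with. The upstream and downstream shares were differenced within each replicate. Without depth or a control file, no summit's enrichment over input was available, and the ranks of 1 list cannot be read as binding strength in another. Nearest-TSS assignment does not say which gene a site acts on.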
